A study of Mus musculus with 12 samples.

Results

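The genes described here are the antimicrobial and oxidase defence genes of the intestinal epithelium. They are Reg3b, Reg3g, Retnlb, Ang4, Duox2, Duoxa2 and Pigr, taken by the gene name the array gives each probe. These 7 genes were among 37074 on the array, and 10 of its 56605 probes carried their names. All 10 probes were well above background on all 12 arrays, so no member was lost to a filter.

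Messenger RNA of the mouse cecum was measured on 1-colour microarrays, on which the brightness of a spot follows the amount of a transcript. The strain was C57BL/6 by the study's methods, and the labels called every animal male. The groups were a sham control, which the methods place at 0 h from the sham operation, and cecum taken 3, 12 or 72 h after cauterization, with 3 arrays in each. Cauterization was a brief burn of the cecum with bipolar forceps, used as a model of postoperative adhesion. Since every control was taken at 0 h, cauterization, laparotomy and the time since the operation cannot be told apart. The study calls the samples of a group biological triplicates, and neither it nor the labels say how much of the cecal wall around the burn was sampled.

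The epithelium of the large intestine keeps bacteria at a distance with secreted proteins. Reg3b and Reg3g are C-type lectins that bind and kill bacteria, Retnlb is a goblet cell protein that damages bacterial membranes, and Ang4 is an antimicrobial ribonuclease. Duox2 makes hydrogen peroxide at the apical membrane and needs its maturation factor Duoxa2 to reach it, while Pigr carries IgA across the epithelium into the lumen. Cytokines such as IL-22 and IL-17A are known inducers of several of these genes.

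Reg3b and Reg3g both lie in the Reg gene cluster of chromosome 6, with Reg3d, Reg3a, Reg2, Reg1 and the predicted gene Gm52853 between them in RefSeq GRCm38.p6. As related genes could share signal, 30 of the 60 bases of each probe are shown. The Reg3b probe lay at chr6:78323323-78323382 of mm9 on the plus strand, and the Reg3g probe at chr6:78416420-78416479 on the minus strand.
Reg3b probe: gtgaagactcacctagaaaaagcattttct
Reg3g probe: gagtacagaattgacatcatgggttgatat
Over their 60 bases, both probes shared no run longer than 6 bases with each other. Neither probe was compared with the transcript of the other gene, so shared signal was not tested.

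Duox2 was measured by 3 probes on the minus strand of chromosome 2, shown here because they differed in the size of their response. In the array's annotation they began at bases 1156, 4494 and 4715 of their transcripts, at chr2:122108679-122108738, chr2:122106173-122106232 and chr2:122105952-122106011 of mm9. The probe at base 4494 ended with a TGA, written in capitals, and the probe at base 1156 listed no RefSeq transcript. On the chromosome, bases 1156 and 4494 lie closer together than these numbers do, so base 1156 is counted along another transcript. The base numbers below name the probes and do not give positions along a single transcript.
Duox2 probe, base 1156: gcttgtcgggttccctaacccctacctctg
Duox2 probe, base 4494: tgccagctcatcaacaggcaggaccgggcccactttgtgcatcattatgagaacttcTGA
Duox2 probe, base 4715: tttgcgatgtatagcaaggagaggaaagcc

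Pigr had 2 probes, and their sequences show why they are kept apart. One lay at chr1:132741106-132741165 of mm9 on the plus strand and listed a single RefSeq transcript, of Pigr. The other, which was the brighter, was given at chr19:5932558-5932617 on the minus strand, was 100% purine, held 17 GAA or GAG units in its 60 bases and listed 4 RefSeq transcripts of 3 genes, namely Pigr, Rhox8 and Zfp811. It is called the repeat probe here, and the chromosome 1 probe stands for Pigr.
Pigr probe on chromosome 1: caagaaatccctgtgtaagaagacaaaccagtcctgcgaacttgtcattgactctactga
Pigr repeat probe: gaggaggaggaggagaaggagaaggagaag

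The remaining members had 1 probe each. These lay in mm9 at chr16:48818874-48818933 for Retnlb, at chr14:52384066-52384125 for Ang4 and at chr2:122128112-122128171 for Duoxa2. No genome of this build was at hand, and exons were not assigned.

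Sequence before the start site is shown for Reg3b and Reg3g, which share a gene cluster, and further on for the neighbours Duox2 and Duoxa2. In RefSeq GRCm38.p6, the 250 bases before the start of Reg3b and of Reg3g aligned with 173 identical and 74 mismatched bases, or 70.0% identity, and 6 gap bases. Capitals mark TTCNNNGAA, the palindrome that STAT factors recognise, and TATAAAA, the TATA box, both searched on both strands.
Reg3b, chr6:78370635-78370884, plus strand: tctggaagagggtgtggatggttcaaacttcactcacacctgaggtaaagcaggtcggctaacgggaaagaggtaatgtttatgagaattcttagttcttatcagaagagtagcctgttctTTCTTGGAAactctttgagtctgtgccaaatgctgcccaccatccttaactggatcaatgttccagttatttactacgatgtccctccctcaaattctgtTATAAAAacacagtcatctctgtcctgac
Reg3g, chr6:78468875-78469124, minus strand: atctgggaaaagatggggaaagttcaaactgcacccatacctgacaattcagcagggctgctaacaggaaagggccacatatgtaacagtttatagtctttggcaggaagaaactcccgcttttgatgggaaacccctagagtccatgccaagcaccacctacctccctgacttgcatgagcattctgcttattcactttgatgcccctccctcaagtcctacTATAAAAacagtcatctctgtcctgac
TATAAAA began 29 bases before the start of Reg3b and 27 bases before that of Reg3g, and 4.98% of 32851 promoter windows of this length held it. TTCNNNGAA began 129 bases before the start of Reg3b, was not in the Reg3g window and was in 7.02% of all windows. Among the other members with a window, Ang4 held 1 TTCNNNGAA, 192 bases before its start, and Duox2, Duoxa2 and Pigr held none. The Duox2 window starts from a transcript start 513 bases inside the annotated span of the gene.

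Duox2 and Duoxa2 lie head to head, with Duoxa1 and Duox1 next to them. By the outer ends of their annotated spans, 159 bases separated Duox2 and Duoxa2, and 1 TATAAAA, in capitals, began 30 bases before the start of Duoxa2.
Between Duox2 and Duoxa2, chr2:122298741-122298899, plus strand: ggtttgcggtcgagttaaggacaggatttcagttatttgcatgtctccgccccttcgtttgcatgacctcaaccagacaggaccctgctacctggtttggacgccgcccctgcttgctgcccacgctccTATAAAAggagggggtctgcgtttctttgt

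On every array 62976 spots were read, of which 3671 were controls, and between 60.2% and 65.2% of probes were well above background. Levels are log2 intensities relative to each array's 75th percentile, so that 1 unit is 2-fold. A probe was called when it differed more than 2-fold with an adjusted p under 0.05 in limma, the p being adjusted by Benjamini-Hochberg over all probes, and a gene was called by its brightest probe. The median gene moved by 0.06, -0.04 and -0.15 from sham at 3, 12 and 72 h. The sham and 3 h arrays and 2 of the 12 h arrays lay on slide 1, and the last 12 h array and the 72 h arrays on slide 2, so that slide and the 72 h group were separated by 1 array. The labelled sex was not borne out, since Xist was well above background on 12 of 12 arrays and Ddx3y and Eif2s3y on 0, although 1 of 6 Kdm5d probes was above it on 12 arrays and 1 of 3 Uty probes on 1. Defining markers of cecal epithelium were detected, with all 16 general epithelial and all 12 colonocyte genes above background on every array. Of 10 small intestinal markers 6 were above it on all arrays, Lct and Sis on 1 array each and Apoa4 on 0.

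The 7 genes did not share 1 course. Duox2 and Duoxa2 rose by 3 h, were high at 12 h and had dropped by 72 h. Reg3g and Reg3b had their highest values at 12 h, where only Reg3g was called, and only against sham. Ang4 was highest at 3 h and lowest at 72 h, and Pigr had lower values from 12 h on, while the groups of Retnlb overlapped throughout.

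At 3 h, 2 of the 7 genes were called higher than sham and 0 lower, where 3.17% of all genes were called higher and 4.25% lower. At 12 h, 3 were called higher and 0 lower, against 3.95% and 5.35% of all genes. At 72 h, 0 were called in either direction, against 4.51% higher and 4.39% lower, although 12335 of all genes had an unadjusted p under 0.05. The median difference of the 7 genes was 0.87, 2.63 and 0.83 at these times. By brightest probe, the arrays of 3, 5 and 3 members did not overlap those of sham, against 44.8%, 36.7% and 38.3% of all genes. From 3 to 12 h, from 12 to 72 h and from 3 to 72 h, 5, 5 and 4 members did not overlap. The shares of all genes there were 29.9%, 37.4% and 57%. An exact two-sided permutation test of 3 arrays against 3 cannot give a p below 0.1, which was reached in 18 of the 30 comparisons of a member probe with sham. Adjusted p-values below are those of limma.

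**Figure D1:**
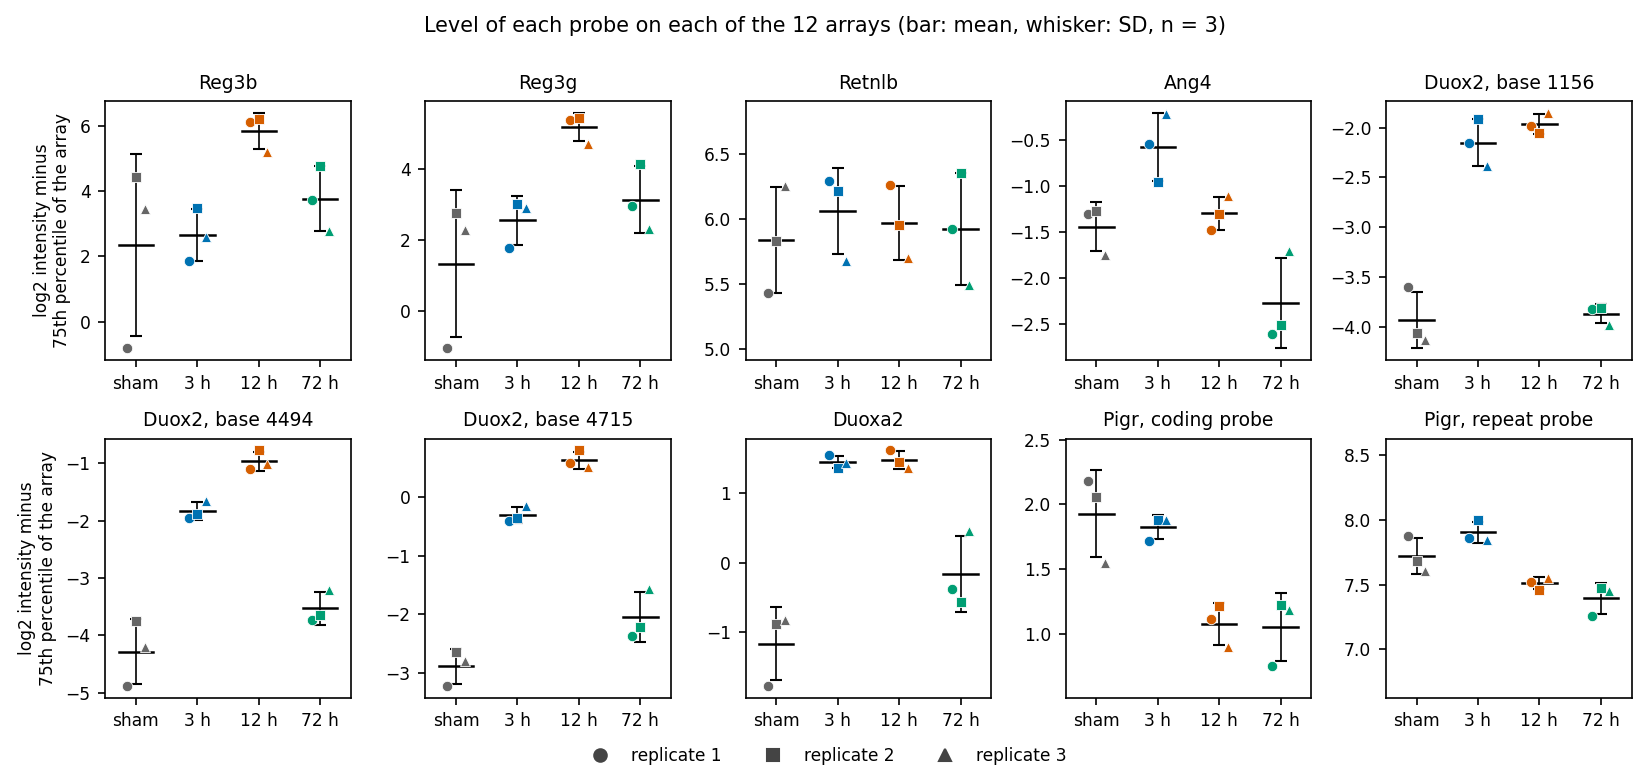
Level as log2 intensity relative to each array's 75th percentile (vertical axis, with its own range in each panel) of the 10 probes by group, with symbols for the replicate, bars for means and whiskers for the SD of 3 arrays. The Duox2 and Duoxa2 arrays at 3 and 12 h lie above all sham and 72 h arrays, and sham replicate 1 lies far below the other sham arrays for Reg3b and Reg3g.

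Duox2 and Duoxa2 rose at 3 and 12 h with the smallest adjusted p-values of the 7 genes. At base 4715 of Duox2, its brightest probe, the sham arrays read -3.22, -2.64 and -2.79. The 3 h arrays read -0.40, -0.36 and -0.15, those of 12 h 0.57, 0.79 and 0.52, and those of 72 h -2.37, -2.21 and -1.56. No array of one group reached the range of another, and the order was sham, 72 h, 3 h, 12 h. The rise over sham was 5.96-fold at 3 h (log2 2.58, SE 0.22, adjusted p = 8.22e-05) and 11.4-fold at 12 h (log2 3.51, adjusted p = 1.06e-05). The neighbours at either end of this order passed the adjusted p but not the fold, 72 h against sham at 0.83 (adjusted p = 0.0228) and 12 h against 3 h at 0.93 (adjusted p = 0.0277). Neither passed with slide as a block, at 0.999 (adjusted p = 0.223) and 0.99 (adjusted p = 0.0609). Nor did 72 h against sham without sham replicate 1, at 0.67 (adjusted p = 0.0809), or without 72 h replicate 3, at 0.59 (adjusted p = 0.0577). The difference of 12 h from 3 h passed both criteria in 3 of 26 alternatives, as without 3 h replicate 3, at 1.01 (adjusted p = 0.0487).

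The probe at base 4494 of Duox2 followed the same order. Its sham arrays read -4.88, -3.76 and -4.21, and its 12 h arrays -1.11, -0.78 and -1.02. Between them lay the 3 h arrays, at -1.96, -1.88 and -1.66, and the 72 h arrays, at -3.74, -3.65 and -3.21. The rise over sham was 2.45 at 3 h (SE 0.26, adjusted p = 0.000264) and 3.31 at 12 h (adjusted p = 3.24e-05). At this probe neither 72 h against sham (0.75, adjusted p = 0.0670) nor 12 h against 3 h (0.86, adjusted p = 0.0671) passed the adjusted p.

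The probe at base 1156 rose less and was back at the sham level at 72 h. It read -3.61, -4.06 and -4.13 in sham and -2.15, -1.91 and -2.39 at 3 h. At 12 h the arrays were at -1.98, -2.06 and -1.85, and at 72 h they were at -3.82, -3.81 and -3.98. The 72 h arrays lay within the sham range, at a difference of 0.06 (adjusted p = 0.814), and the 3 and 12 h arrays overlapped, at 0.19 (adjusted p = 0.483). Against sham it rose by 1.78 at 3 h (SE 0.16, adjusted p = 0.000136) and by 1.97 at 12 h (adjusted p = 4.93e-05). This probe was dim, with intensities between 15.8 and 88.3, and with normexp background correction and an offset of 50 its rises were 0.75 and 0.79, under 2-fold. The probe at base 4494 reached lower, with intensities between 9.60 and 182. With normexp its 3 h rise was 0.95 and its difference of 72 h from 3 h -0.94, both under 2-fold. The 3 probes thus shared the rise at 3 and 12 h but not its size or the level at 72 h, and the differences between probes were not tested.

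Duoxa2 rose with Duox2 but without a further step from 3 to 12 h. Its arrays read -1.77, -0.89 and -0.83 in sham and 1.54, 1.36 and 1.44 at 3 h. The values of the 12 h arrays were 1.61, 1.44 and 1.36, and those of the 72 h arrays -0.38, -0.57 and 0.46. The 3 and 12 h arrays overlapped and lay above all others, and all 72 h arrays lay above sham. The rise was 6.09-fold at 3 h (log2 2.61, SE 0.29, adjusted p = 0.000377) and 6.20-fold at 12 h (log2 2.63, adjusted p = 0.000237), and these times differed by 0.03 (adjusted p = 0.965). At 72 h the difference from sham was 1.996-fold, just under the fold threshold, with an adjusted p of 0.0374. It passed both criteria at 1.04 with quantile normalization, at 1.01 in the authors' own table and at 1.16 without sham replicate 3. With slide as a block it was 1.16 (adjusted p = 0.272), and it was 0.69 both without sham replicate 1 (adjusted p = 0.112) and without 72 h replicate 3 (adjusted p = 0.107).

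From 3 to 12 h, 0 members were called in either direction, where 1.83% of all genes were called higher and 1.63% lower, and 9293 genes had an unadjusted p under 0.05. From 12 to 72 h, Duox2 and Duoxa2 were the 2 of 7 genes called lower and 0 were called higher, where 2.92% of all genes were lower and 4.51% higher. Duox2 dropped by 2.67 at base 4715 (adjusted p = 0.000149), dropped by 2.56 at base 4494 (adjusted p = 0.000315) and dropped by 1.91 at base 1156 (adjusted p = 0.000170), and Duoxa2 dropped by 1.64 (adjusted p = 0.00470). From 3 to 72 h, 3 members were called lower and 0 higher, where 5.34% of all genes were lower and 6.26% higher, and these were Duox2, Duoxa2 and Ang4. Duox2 dropped by 1.74, 1.70 and 1.72 at bases 4715, 4494 and 1156, and Duoxa2 by 1.61 (adjusted p = 0.00274). Within slide 2 alone, which held 1 array at 12 h and 3 at 72 h, 72 h stood at -2.56, -2.51 and -2.02 against 12 h for Duox2 and at -1.52 for Duoxa2, and none passed with so few arrays (adjusted p from 0.127 to 0.274). With slide as a block Duoxa2 at 72 h stood at -1.52 against 12 h (adjusted p = 0.0916) and at -1.44 against 3 h (adjusted p = 0.131). With the same block Duox2 at 72 h stood at -1.58 (adjusted p = 0.0727) against 3 h at base 4715 and at -1.62 (adjusted p = 0.0916) at base 4494, while its drops from 12 h passed at all 3 probes. Scaled to the mean of 16 epithelial markers, the drop of Duoxa2 from 12 to 72 h came to -0.98 (adjusted p = 0.0173), under 2-fold, while those of Duox2 passed at -2.02, -1.91 and -1.26. Slide and the 72 h group cannot be told apart further than this.

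**Figure D2:**
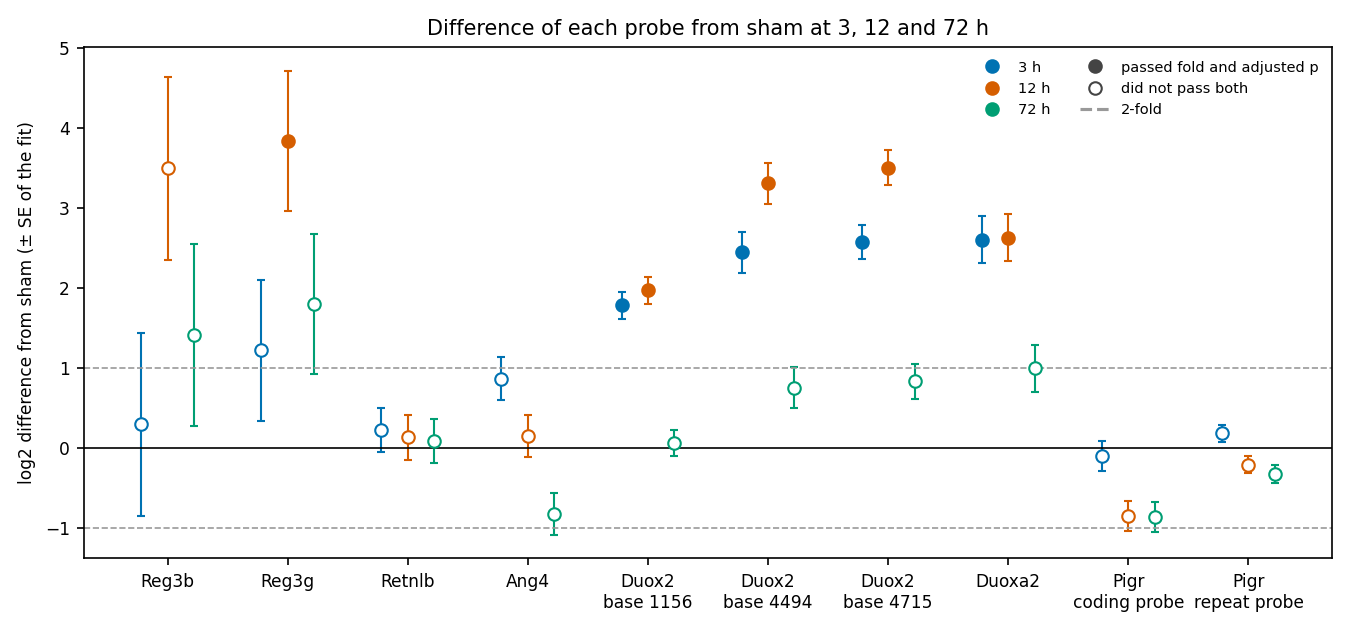
Log2 difference from sham (vertical axis) of each probe at 3, 12 and 72 h with the SE of the limma fit, filled where the fold and the adjusted p both passed. Duox2 and Duoxa2 pass at 3 and 12 h on every probe, Reg3g passes at 12 h, and Reg3b at 12 h has an SE of 1.14.

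The other oxidase genes measured were 19 in number. Of these, 2 were called higher at 3 h, 7 at 12 h and 7 at 72 h, and 0, 0 and 1 were called lower, with medians of 0.40, 0.80 and 0.12. Duoxa1, the maturation factor of the paralog DUOX1 and a neighbour of Duoxa2, rose by 3.26 at 3 h (SE 0.48, adjusted p = 0.00150), by 2.71 at 12 h (adjusted p = 0.00292) and by 1.52 at 72 h (adjusted p = 0.0475), and was above background on 2 of the 3 sham arrays. Its partner Duox1 was above background on 2 of 12 arrays and was not called. Nox1, the superoxide-producing oxidase of the colon epithelium, rose at 3 h by 1.39 (SE 0.25, adjusted p = 0.00431) and stood at 0.38 and -0.04 later (adjusted p = 0.341 and 0.917).

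The oxidase genes that rose at 12 and 72 h were mostly subunits of the phagocyte enzyme. Ncf1, its organising subunit, showed the largest rise at 12 h among genes above background on all arrays, 2.76 (SE 0.47, adjusted p = 0.00236), and Mpo, the peroxidase of neutrophil granules, the largest at 72 h, 2.98 (SE 0.39, adjusted p = 0.000801). Lpo, the lactoperoxidase of secretions, fell by 1.38 at 72 h (adjusted p = 0.00264). Of 16 neutrophil markers, of which Mpo is 1, 10 were called higher at 3 h, 13 at 12 h and 11 at 72 h. Thus Duox2 and Duoxa2 were back below 2-fold over sham at 72 h, while the phagocyte oxidase genes Cybb, Ncf1 and Ncf4 stood at 2.15, 2.18 and 2.12.

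**Figure D3:**
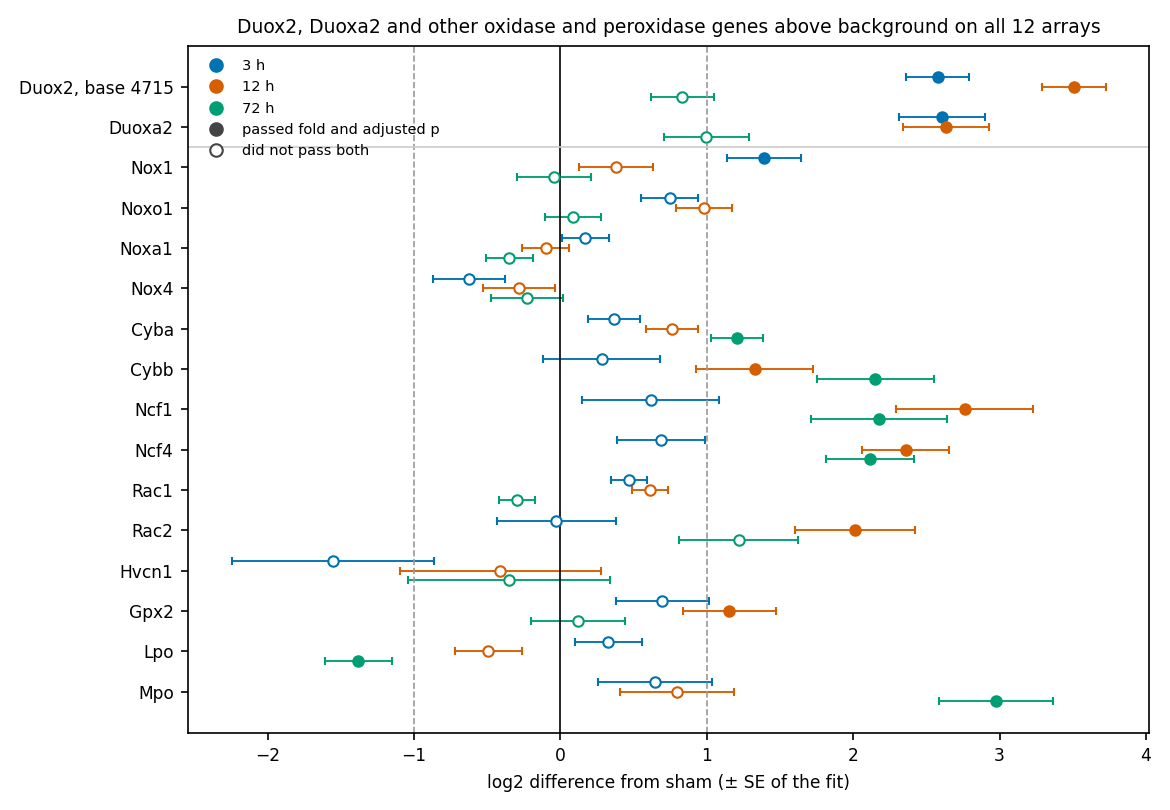
Log2 difference from sham (horizontal axis, with the SE of the fit) of Duox2 and Duoxa2, above the line, and of 14 other oxidase genes above background on all 12 arrays, filled where the fold and the adjusted p both passed. Duox2, Duoxa2 and Nox1 are the genes shown that pass at 3 h, and Cybb, Ncf1 and Ncf4 pass at 12 and 72 h.

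Reg3g rose at 12 h, and Reg3b showed values of the same course that did not pass the test. Reg3g read -1.05, 2.76 and 2.29 in sham and 1.77, 3.00 and 2.89 at 3 h. It stood at 5.38, 5.44 and 4.71 at 12 h, and the 72 h arrays gave 2.96, 4.15 and 2.30. All 12 h arrays were above all others, and sham replicate 1 was more than 3 units below the other sham arrays. The rise at 12 h was 14.3-fold (log2 3.84, SE 0.88, adjusted p = 0.0115), and without sham replicate 1 it was 2.65 (adjusted p = 0.0122). At 3 h the difference from sham was 1.22 (adjusted p = 0.351), which was 0.03 without sham replicate 1, and at 72 h it was 1.80 (adjusted p = 0.187), or 0.61 without it.

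Reg3b read -0.82, 4.44 and 3.47 in sham and 1.87, 3.48 and 2.60 at 3 h. It read 6.14, 6.22 and 5.22 at 12 h and 3.75, 4.79 and 2.78 at 72 h. Again all 12 h arrays lay above all others, and sham replicate 1 was the lowest of the 12. The 12 h difference from sham was 3.50 with an SE of 1.14 and missed the threshold (adjusted p = 0.0536). Without sham replicate 1 it was 1.91 (adjusted p = 0.0848), and without sham replicate 2 it was 4.54 and passed (adjusted p = 0.0249). It also passed with normexp at 3.37 (adjusted p = 0.0281), with the filter on dim probes (adjusted p = 0.0304) and with the replicate number as a block (adjusted p = 0.0419). Of 26 alternatives, 6 called it and 20 did not, among them slide as a block, at 3.82 (adjusted p = 0.0770).

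For both lectins the order of the mean levels was sham, 3 h, 72 h, 12 h. No neighbours in this order passed the test, 72 h standing at -2.04 against 12 h for Reg3g (adjusted p = 0.147) and at -2.09 for Reg3b (adjusted p = 0.252). The difference of 12 h from 3 h did not pass either, for Reg3g (adjusted p = 0.0975) or Reg3b (adjusted p = 0.116). When sham replicate 1 was left out, which narrows the spread shared by all groups, the decline from 12 to 72 h passed for Reg3g (adjusted p = 0.0215) and Reg3b (adjusted p = 0.0380), as did the difference of 12 h from 3 h, 2.62 for Reg3g (adjusted p = 0.0160) and 3.21 for Reg3b (adjusted p = 0.0144). Slide 1 alone gave a 12 h difference from sham of 4.07 for Reg3g (adjusted p = 0.0401) and 3.82 for Reg3b (adjusted p = 0.115). Sham replicate 1 was also the lowest sham array for Duoxa2 and for Duox2 at bases 4494 and 4715, but the highest for Duox2 at base 1156 and for both probes of Pigr.

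The other Reg genes of the array were read beside them. Reg3a was above background on the 12 h arrays alone and rose there at least 1.98-fold (adjusted p = 0.00443). Reg1 and Reg2, which lie between Reg3b and Reg3g and are named here after their values were seen, were above background on 1 and 0 arrays. Reg1 was called higher at 72 h (adjusted p = 0.0166), where 1 of 3 arrays was above background, and no fold is given. Reg3d, above background on all arrays, differed from sham by -0.13, -0.35 and -0.28 and was not called. Reg4, made by enteroendocrine and goblet cells, stood at 0.44, -0.45 and 0.49 from sham, each under 2-fold (adjusted p = 0.0408, 0.0356 and 0.0259), so that it was lowest at 12 h, where Reg3g was highest. Reg3 genes are also made by the exocrine pancreas. Of 17 pancreatic acinar markers, 8 were above background on all arrays and 2, Prss2 and Pnlip, on 0 arrays. Among those 8 was Zg16, at 8.07 in sham, which is also in the list of other antimicrobial genes. At 3, 12 and 72 h, 0, 0 and 2 were called higher and 0, 1 and 1 lower. The mean level of the list was -3.85 to -3.77 in sham, -4.21 to -4.01 at 12 h and -3.89 to -3.65 at 72 h. A pancreatic share in the Reg3 signal was not tested.

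Ang4 had its highest values at 3 h and its lowest at 72 h. It read -1.31, -1.27 and -1.75 in sham and -0.55, -0.96 and -0.22 at 3 h. At 12 h the arrays were at -1.47, -1.30 and -1.11, and at 72 h they were at -2.60, -2.50 and -1.71. The 3 h arrays lay above all others, and 1 of the 72 h arrays lay within the sham range. From 3 to 72 h Ang4 fell 3.24-fold (log2 -1.70, SE 0.26, adjusted p = 0.00120). The steps against sham were under 2-fold, 0.87 at 3 h (adjusted p = 0.0454), 0.15 at 12 h (adjusted p = 0.800) and -0.83 at 72 h (adjusted p = 0.0503). In the order 72 h, sham, 12 h, 3 h, no neighbours passed both criteria. With slide as a block 72 h stood at -1.97 against 3 h (adjusted p = 0.0667).

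Retnlb was bright and was not called in any comparison. It read 5.43, 5.83 and 6.26 in sham and 6.29, 6.22 and 5.68 at 3 h. The values of the 12 h arrays were 6.27, 5.95 and 5.70, and those of the 72 h arrays 5.93, 6.35 and 5.49. Every pair of groups overlapped. Its differences from sham were 0.22, 0.13 and 0.08 with an SE of 0.28 (adjusted p = 0.609, 0.847 and 0.853), and limma's F-test over the 4 groups gave an adjusted p of 0.893. That test passed for 39.7% of all genes, and for all other members except Reg3b (adjusted p = 0.0942). Of 12 goblet cell markers, the cell type that makes Retnlb, 1 was called higher at 3 h, 1 at 12 h and 2 at 72 h, and 2 were called lower at 72 h. Those called higher were Spdef at 3 h, Ccl6 at 12 h, and Agr2 and Ccl6 at 72 h, and those called lower were Clca1 and Muc4. Ccl6 stood at 2.04 and 2.12 from sham at 12 and 72 h, and which cells its signal came from was not tested. Il4 and Il13, known inducers of Retnlb, were not called at any time, with differences from sham of 0.45, 0.68 and 0.54 for Il4 and -0.25, -0.86 and -0.89 for Il13, which was above background on 8 arrays.

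Retnla, a relative of Retnlb made by macrophages and epithelium, fell by 2.07 at 12 h (adjusted p = 0.0309) and by 4.17 at 72 h (SE 0.59, adjusted p = 0.00118). These were the largest falls among the 30 other antimicrobial genes. Of those 30, 8 were called higher at 3 h, 14 at 12 h and 11 at 72 h, and 0, 1 and 3 were called lower. S100a9, a calcium-binding protein of neutrophils, showed the largest rises among genes above background on all arrays, 10.04, 10.82 and 10.06 (SE 0.44, adjusted p = 3.23e-06, 2.52e-06 and 4.57e-06). Lcn2, an iron-sequestering protein of both epithelium and neutrophils, rose by 6.00 at 3 h (SE 0.60, adjusted p = 0.000212), 8.90 at 12 h (adjusted p = 1.75e-05) and 6.58 at 72 h (adjusted p = 0.000108). Lcn2 and S100a9 also belong to the neutrophil list, and their share from each cell type was not tested.

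Pigr had lower values at 12 and 72 h, short of 2-fold. Its chromosome 1 probe read 2.18, 2.06 and 1.55 in sham and 1.72, 1.88 and 1.88 at 3 h. It stood at 1.12, 1.21 and 0.90 at 12 h, and the 72 h arrays gave 0.75, 1.23 and 1.19. All arrays at 12 and 72 h lay below all sham and 3 h arrays, and the 12 and 72 h arrays overlapped. The difference from sham was -0.10 at 3 h (adjusted p = 0.736), -0.85 at 12 h (SE 0.19, adjusted p = 0.00933) and -0.87 at 72 h (adjusted p = 0.00937), a level 1.80-fold and 1.83-fold lower. Without sham replicate 3 it passed both criteria, at -1.04 and -1.06. With slide as a block it stood at -0.76 at 12 h (adjusted p = 0.0322) and at -0.61 at 72 h (adjusted p = 0.322).

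The repeat probe of Pigr moved less. It read 7.72 ± 0.14 (SD, n = 3) in sham and 7.90 ± 0.08 at 3 h. Its mean was 7.51 ± 0.05 at 12 h, and the 72 h arrays gave 7.39 ± 0.12. Its differences from sham were 0.18, -0.21 and -0.33, none of which was called, and its intensity was between 53788 and 68289, among the brightest of the array. Counting Pigr by its chromosome 1 probe left the number of members called at 3, 12 and 72 h as it was.

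The other genes of the IgA pathway were mostly not called. Of 16 measured, 0, 1 and 0 were higher and 0, 1 and 1 lower at 3, 12 and 72 h. Tnfsf13b, the B cell survival factor BAFF, rose by 1.34 at 12 h (SE 0.10, adjusted p = 3.06e-05), and Tnfrsf17, the plasma cell receptor BCMA, fell by 1.21 (adjusted p = 0.00695). Jchain, the joining chain through which IgA binds the receptor, differed from sham by 0.07, -0.16 and -0.20 and was not called.

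The mean level of the epithelial markers moved over the course, and in tissue RNA fewer cells of a type and less RNA per cell cannot be told apart. The mean level of the 16 general epithelial markers was 5.26 to 5.38 in sham, 5.73 to 5.82 at 3 h, 5.38 to 5.61 at 12 h and 4.53 to 5.08 at 72 h. The markers did not all move alike. Against sham, Krt18 was called higher at 3 h (1.15) and Prom1 at 12 h (1.37), and Cdx2 lower at 72 h (-1.02), the only calls. Cdx2 stood at -0.74 and -0.95 at 3 and 12 h. At 3 h the median of the 16 was 0.50, and that of the colonocyte genes 0.07. How far the mean of the 16 follows the amount of epithelium was not tested. Of 12 colonocyte genes, 1 was called lower at 3 h, 3 were at 12 h and 7 were at 72 h, where their median was -1.57, and 0 were called higher. The part of these shifts in the members' changes was measured only through the scaling that follows. When the array was scaled to the epithelial mean, Duox2 at base 4715 rose by 2.12 at 3 h (adjusted p = 0.000103) and 3.32 at 12 h (adjusted p = 3.75e-06) and was 1.29 higher than sham at 72 h, which then passed (adjusted p = 0.00122). At 72 h base 4494 also passed, at 1.21 (adjusted p = 0.00729), while base 1156 stood at 0.52 (adjusted p = 0.176). Duoxa2 was likewise called higher at 72 h, by 1.46 (adjusted p = 0.00501). From 3 to 12 h, Duox2 then passed at base 4715, at 1.19 (adjusted p = 0.00643), and at base 4494, at 1.13 (adjusted p = 0.0248). Base 1156 stood at 0.45 (adjusted p = 0.354). Between 3 and 72 h the differences came down to -0.83, -0.78 and -0.81 for Duox2 at bases 4715, 4494 and 1156, -0.70 for Duoxa2 and -0.78 for Ang4, all under 2-fold. Pigr was called lower at 12 h, at -1.04 (adjusted p = 0.00281), and stood at -0.41 at 72 h (adjusted p = 0.153).

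**Figure D4:**
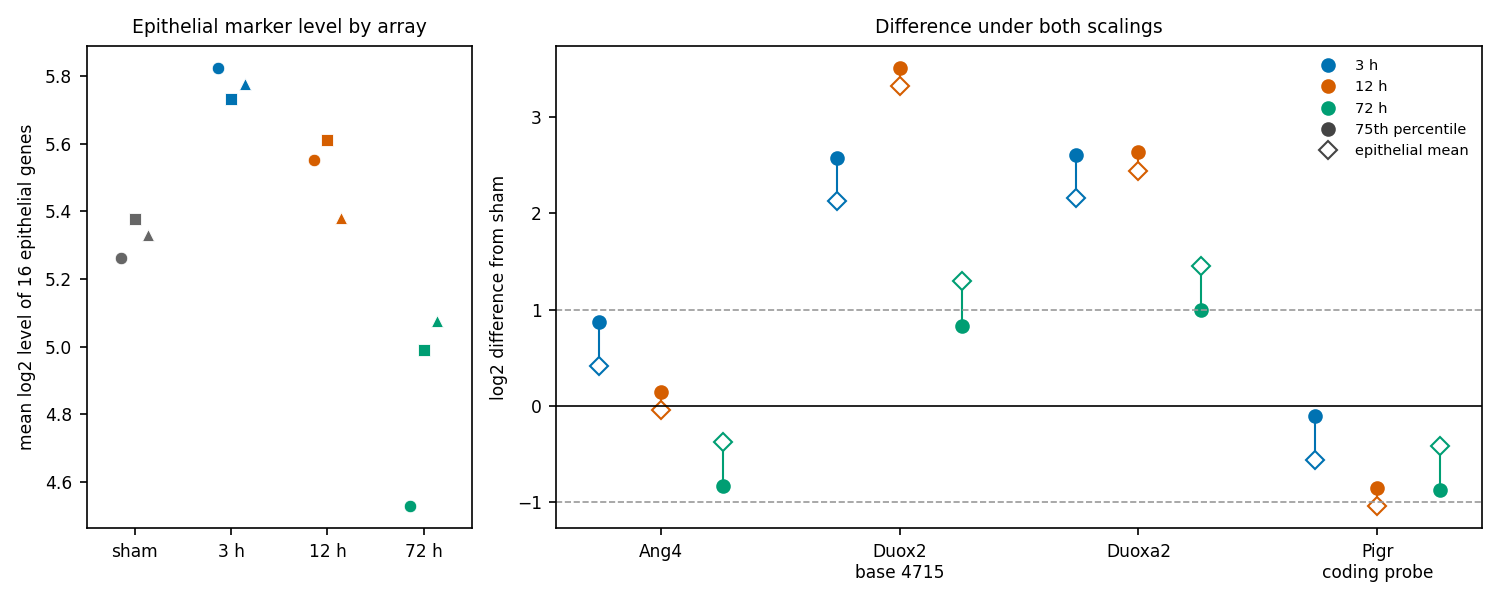
Left, mean log2 level of 16 epithelial marker genes (vertical axis) on each array, with circle, square and triangle for replicates 1, 2 and 3, which is lowest at 72 h. Right, log2 difference from sham (vertical axis) with arrays scaled to the 75th percentile (filled circles) and to the epithelial mean (open diamonds), where Duox2 at base 4715 and Duoxa2 at 72 h move from below to above the 2-fold line.

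Cytokines, receptors and signal genes known to act on these genes were among the called genes. Of 29 in the list, 15 were called higher at 3 h, 15 at 12 h and 11 at 72 h, and 1 was called lower at each time. Those called higher at 3 and 12 h included Il17c, named here after its values were seen, which was above background on 0 arrays. Il22 read -5.32 ± 1.93 (SD, n = 3) in sham, where 1 of 3 arrays was above background, 1.93 ± 1.19 at 3 h, -0.27 ± 0.50 at 12 h and -4.56 ± 1.75 at 72 h, where 2 of 3 were. With a sham level mostly not above background, the sizes of its differences from sham are uncertain. It rose by 7.25 at 3 h (SE 1.06, adjusted p = 0.00149) and 5.05 at 12 h (adjusted p = 0.00740), and its 72 h difference was 0.77 (adjusted p = 0.639). Its receptor gene Il22ra1 was not called, at 0.10, -0.51 and -0.42, while Il22ra2, which encodes the soluble antagonist, fell by 2.42 at 72 h (adjusted p = 0.0224).

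Il17a followed another course, as it was above background on 0 sham arrays and on every later array. It was at least 3.04-fold higher at 3 h, 7.16-fold at 12 h and 12.7-fold at 72 h (adjusted p = 0.00675, 0.00109 and 0.000627), the dim sham spots being set to the lowest signal measured well above background. The largest rises in the list among genes above background on all arrays were those of Il6 at 3 h, 7.59 (SE 0.45, adjusted p = 1.19e-05), and of Il1b at 12 and 72 h, 8.32 and 7.35 (SE 0.41, adjusted p = 3.73e-06 and 9.06e-06). Tlr5, the flagellin receptor, fell by 1.69 at 3 h (adjusted p = 0.00178) and 1.33 at 12 h (adjusted p = 0.00478). Il22, like Duox2 and Duoxa2, was highest at 3 or 12 h and lower again at 72 h (-4.29 against 12 h, adjusted p = 0.0205), while Il17a had its highest mean at 72 h, though 72 h against 12 h did not pass (0.83, adjusted p = 0.468). Il17f, named here after its values were seen, was above background on 0 sham arrays, was at least 4.09-fold higher at 3 h and 2.44-fold at 12 h (adjusted p = 0.0123 and 0.0445), and was not called at 72 h. These comparisons share the sham arrays, and no relation between the courses was tested.

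Among 20791 genes above background on all 12 arrays, the patterns most like those of the called members were found by the root mean square difference over the 12 arrays, with values centred on sham. The nearest to Reg3g was Reg3b, at 0.64, followed by Mmp3 at 0.87 and Nlrp3 at 1.07. Nearest to Duoxa2 were Rnf183 at 0.34, Cers3 at 0.36 and Nfkbiz at 0.40. For Duox2 at base 4494 Duoxa2 was nearest, at 0.42, with Cemip at 0.44 and Gm11545 at 0.45, and for base 4715 these were Gm11545 at 0.40, Cemip at 0.44 and Ankrd22 at 0.46. Base 1156 was nearest to Itgb6, at 0.27, with probes named only by an Ensembl transcript in the next places at 0.31 and 0.34. Nearest to Ang4 was a probe named only by its transcript, at 0.14, then Ang6 at 0.15 and Ang3 at 0.21, which are its close relatives. The longest run of bases that the Ang4 probe shared with the probes of Ang6 and Ang3 was 5 and 6. It was not compared with their transcripts, so shared signal was not tested. These distances are descriptions over arrays that share slide and group.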

How the data were processed

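For each array the authors deposited the intensity of every spot, linear and corrected for background by Agilent Feature Extraction 11.5.1.1 but without scaling between arrays. A second deposited file held log2 values, for which the methods give a 75th percentile scaling and which were found to be centred on row medians.

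From the intensities, log2 minus each array's 75th percentile over non-control spots was computed for 56605 probes. Outlier spots, 53 to 152 per array, were left out, and spots of 1 probe were averaged. Group means were fitted over 12 arrays by limma 3.58.1 (lmFit, contrasts.fit and eBayes without a block, R 4.3.3), and p-values were adjusted by Benjamini-Hochberg over all probes. A gene was called above 2-fold at an adjusted p below 0.05, by its brightest probe. A probe not well above background in a group was given a bound. Arrays have no depth, and having 3 per group limits the precision. The fit was tested on simulated data. Sequences came from the scanner output and from RefSeq GRCm38.p6, which had promoter windows of 6 of the 7 genes. Python 3.11.15 and version 1.17.8 of the data.table package were used.

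The members, the gene lists and the tests were chosen with earlier results of these data known. Genes named besides the members were the largest called rise and fall per pathway list and time among genes above background on all arrays, a few preset partners, paralogs and inducers, the 3 nearest patterns of each called member, and markers. The lists were other antimicrobial genes, oxidases, IgA transport, cytokines, and markers of epithelium, colonocytes, goblet, Paneth and tuft cells, ileum, pancreatic acini, neutrophils, macrophages, plasma cells, muscle and mesothelium. One gene of the oxidase list is counted but not reported here by itself.

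Alternatives were quantile, median and epithelial scaling, the percentile over detected probes, the authors' table, normexp (offset 50), slide or replicate number as a block, outlier spots kept, leaving out dim probes, trended and robust eBayes, 2 groups alone, the methods' t-test, other counting rules and each array left out. Pigr by its chromosome 1 probe and fits within each slide were added after seeing the data.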

Additional observations from a re-analysis of the deposited data

Results flagged for a closer look

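The changes from sham differed between time points for Duox2, Duoxa2 and Ang4, each by a limma test of 1 time point against another. Between 12 and 72 h, Duox2 differed by -2.67 at base 4715, -2.56 at base 4494 and -1.91 at base 1156 on the log2 scale, and Duoxa2 by -1.64. Between 3 and 72 h, Duox2 differed by -1.74, -1.70 and -1.72 at these probes, Duoxa2 by -1.61 and Ang4 by -1.70. Scaled to the epithelial mean, all of the differences between 3 and 72 h and that of Duoxa2 between 12 and 72 h (-0.98) were under 2-fold. Adjusted p-values of the 75th percentile scaling in limma ran from 0.000117 for Duox2 at base 1156 to 0.00470 for Duoxa2. All 72 h arrays were on slide 2 and all 3 h arrays on slide 1, and the part of the slide was measured only through the 1 array at 12 h on slide 2.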

How the results depend on the processing

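With 3 arrays per group, the precision is limited, and whether a value counts as called depends on the fold threshold where it lies near 2-fold. The methods' t-test is Student's paired t-test, named there for comparisons of 2 groups in general and not for the arrays, and it was paired here by replicate number with 2 degrees of freedom per probe. Its lack of calls says nothing about stability. Under the methods' t-test, 0 members were called at 3 and at 12 h, as were 0 of all probes, although 10038, 11904 and 12449 probes had an unadjusted p under 0.05 at 3, 12 and 72 h. At 72 h, 1 member was called higher with quantile normalization, the percentile over detected probes, median scaling or the authors' table, and 2 with epithelial scaling or without a fold threshold. Leaving out each array in turn gave 0 to 1 member higher at 72 h, with 1 (Duoxa2) without sham replicate 3 or 72 h replicate 2, and 0 to 1 lower, with Ang4 at -1.11 (limma's adjusted p = 0.0119) without 72 h replicate 3. Of 60 differences of member probes, each under 25 or 26 alternatives, 0 called values turned sign. Values called in neither fit turned sign 52 times, the largest being Reg3b at 3 h, -1.30 without sham replicate 1. Over all probes, 4192, 5200 and 4711 were called at 3, 12 and 72 h, against 1003, 1672 and 1540 with normexp and 10509, 12128 and 11541 without a fold threshold. Epithelial scaling called 8513 at 3 h, and slide as a block called 1707 at 72 h. With the replicate number as a block, the counts were 3955, 4997 and 4508, and the only changed call of a member was Reg3b at 12 h (adjusted p = 0.0419). The numbers are not said to pair the arrays, and deviations of same-numbered arrays had correlations of -0.162 to 0.0866. Such low values show no strong shared deviation, but they cannot tell whether the arrays were paired. Under normexp, Duox2 at base 1156 lost all 4 of its calls, and under the methods' t-test every called difference of a member was lost.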

Other observations

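Markers of other cells of the cecal wall moved beside the epithelial genes. All 10 smooth muscle markers were called lower at 12 h and 9 at 72 h, with medians of -1.53 and -1.48, after 2 at 3 h. Of 10 macrophage markers, 1 was called higher and 1 lower at 3 h, and 3 were called higher at 12 h and 9 at 72 h, when the median was 1.65. Of 9 measured mesothelial markers, 3 were called lower and 1 higher at 3 h and again at 12 h, and 4 were called higher and 0 lower at 72 h.

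Of 12 measured Paneth cell markers, 2 were called higher at 3 h, 2 at 12 h and 3 at 72 h, and 1 was called lower at 12 h. Of the 12, 6 were above background on all arrays and 3 on 0 arrays, the α-defensin probes Defa21, Defa26 and Defa3. Another α-defensin probe, Defa23, was above it on 1 sham array and on 2 of the 72 h arrays. Those called higher at 72 h were Lyz1 at 1.33, Mmp7 at 2.30 and Pla2g2a at 2.94, which are also in the antimicrobial list. Of 8 tuft cell markers, 1, 1 and 2 were called higher at 3, 12 and 72 h and 0, 0 and 1 lower. Of 8 plasma cell markers, 1 was called lower at 12 h and 0 were called at 3 and 72 h, and of 10 small intestinal markers 1 was called lower at 12 h and 1 at 72 h, Slc10a2 at -5.06.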
